A study of Mus musculus with 67 samples.

Results

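The genes described here are the neighbours of Gli3 on mouse chromosome 13. Members were gene IDs that start at or before position 35730026 of chromosome 13, which is 20 Mb beyond the end of Gli3, and that had at least 1 TPM (a unit of RNA level per transcript length, with the same total in every library) in at least 3 of 14 RNA-seq libraries. Left out by name were genes starting with Hist1h, Gpx, Nduf or Uqcr, names ending in os, and Gli3, Inhba, Foxc1, Foxf2 and Pfkp. The rule kept 121 of the 46983 gene IDs in the tables. The stretch holds 566 gene IDs, of which 179 passed the TPM limit and 58 of those were left out by name. Members were thus chosen by position and RNA level. Zfp389, Prl8a2 and Agtr1a reached the limit in libraries of 1 group only, so for them the limit also selected on a difference, and their values are given as a description with no test.

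The libraries come from forelimb buds of WT embryos, labelled Swiss Webster, and of Gli3-/- embryos, homozygous for the Xt-J allele of Gli3 and kept on Swiss Webster. Whole buds were taken at E9.25 (21 to 23 somites) from WT (n = 3) and Gli3-/- (n = 4) embryos, with about 4 pairs of buds pooled per library. Anterior buds were taken at E10.5 (32 to 35 somites) from WT (n = 4) and Gli3-/- (n = 3) embryos, with 2 pairs per library in the labels. E9.25 precedes Hedgehog signaling in the limb and E10.5 follows its onset, so each stage asks how loss of Gli3 altered RNA before or after the pathway was active. Nothing says whether libraries shared litters, so p-values measure the spread between these pools.

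Gli3 encodes a zinc finger transcription factor that is processed to a repressor when Hedgehog signaling is absent, and in the limb bud it restrains Hedgehog target genes in anterior mesenchyme. The Xt-J allele is a deletion at Gli3. Genes close to a mutation are inherited with it, so homozygous mutants can also be homozygous for the surrounding chromosome of the strain in which the mutation arose. Here the linked chromosome and the loss of Gli3 cannot be told apart, and sequence variants were not analysed here.

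Of the 121 members, 43 lie before Gli3, 77 after it, and the lncRNA Gm6556 overlaps its start on the other strand. In RefSeq, 81 are protein-coding, 16 are pseudogenes, 6 are lncRNAs and 4 have another class, and 14 have no entry under their symbol or a synonym. Another listed gene with a TPM of at least 1 overlaps 39 members, and 9 members span under 200 bases. Reads of such genes, and of pseudogenes with near-identical copies elsewhere, may have been split between genes, and the tables do not say whether strand was used. At least 1 TPM was found in all 14 libraries for 88 members. At the position limit the last member was Cdyl, which starts at 35659862, and the first gene outside was Rpp40, which starts at 35893472. At the TPM limit the third highest TPM was 1.00 for Zfp389 inside and 0.929 for Gm11346 outside.

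Gli3 (ENSMUSG00000021318.15, chromosome 13, 15463235 to 15730026, plus strand, mm10) served to check the labels. At E10.5 its level fell by 1.01 on the log2(TPM + 1) scale in Gli3-/- buds (limma adjusted p = 0.000335), and at E9.25 it fell by 0.74 (limma adjusted p = 0.223). For E9.25 WT, replicate 2 as labelled showed 4.07 for Gli3, inside the range of 3.94 to 4.45 of the Gli3-/- libraries, whereas the other WT libraries had 5.50 and 5.51. That library was also low for long genes, with a median difference from the other WT libraries of −0.55 for genes spanning at least 100 kb against −0.21 for members. E9.25 and average results rest partly on it, and the counts of members are also given without it. Depth was estimated at 38.1 to 56.8 M reads per library. The 6 forelimb mesenchyme markers (Tbx5, Prrx1, Fgf10, Meis2, Hand2 and Lhx9) were all above 0 in every group. Their summed level was 8.15 to 8.67 in WT and 8.26 to 8.91 in Gli3-/- libraries of the earlier stage, with 0 of 6 called. The sum hides opposite shifts there. Lhx9 stood at 5.69 to 6.21 in WT and 3.58 to 5.32 in Gli3-/- libraries, and Hand2 at 4.96 to 5.76 and 5.77 to 6.51. Tbx5, Prrx1, Fgf10 and Meis2 overlapped at E9.25. At E10.5 the summed mesenchyme level was 9.11 to 9.41 in WT against 8.87 to 9.04 in Gli3-/- libraries, with 2 called higher and 3 lower. Prrx1 stood at 7.81 to 8.24 against 7.41 to 7.51, Meis2 at 6.24 to 6.49 against 4.81 to 5.46, and Lhx9 at 7.35 to 7.75 against 6.64 to 6.70. Hand2 stood at 4.46 to 5.02 against 6.20 to 6.83, and Fgf10 at 3.49 to 3.82 against 4.73 to 4.82, whereas Tbx5 overlapped. The summed level of 5 flank markers (Foxf1, Gata4, Gata6, Hand1 and Nkx2-5, the last at 0 in every library) was 4.20 to 5.69 in E9.25 WT and 6.05 to 7.62 in E9.25 Gli3-/- libraries, and 2 of 4 tested were called higher. The summed level of 4 endothelial markers was 5.37 to 5.99 against 6.26 to 6.87 at E9.25, with 0 of 4 called. Of 5 ectoderm and apical ridge markers, 1 was called higher at E10.5, and their summed level was 7.35 to 7.56 against 7.97 to 8.16. The part of these cell types in the results below was not tested, and in bulk tissue fewer cells of a type and less RNA per cell cannot be told apart.

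Loss of Gli3 was followed by few called changes among the linked genes. At E9.25, 0 of 105 tested members passed an adjusted p of 0.05 in limma, where 0.136% of all 14760 tested genes passed. An unadjusted p under 0.05 was found for 28 members, or 26.7%, against 22.0% of all genes. Without WT replicate 2 the count was again 0. At E10.5, 6 of 113 tested members passed, 4 higher and 2 lower, which is 5.31% against 4.77% of all 15654 tested genes. For higher genes the share over all genes was 1.84%, and for lower genes 2.93%. Without Gli3-/- replicate 3 the count was 3, when 1.94% of all genes passed and Prl8a2 fell under the TPM filter. For 4 of the tested members (Prl8a2, Agtr1a, Zfp389 and Gm11284) only 1 genotype had a library at the TPM limit, and without such genes 5 of 109 members passed, 3 higher and 2 lower, or 4.59% against 4.3% of all genes. The share of members called at E10.5 was thus close to that of all genes, and on the rest of chromosome 13 it was 5.13% (22 of 429 genes).

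**Figure D1:**
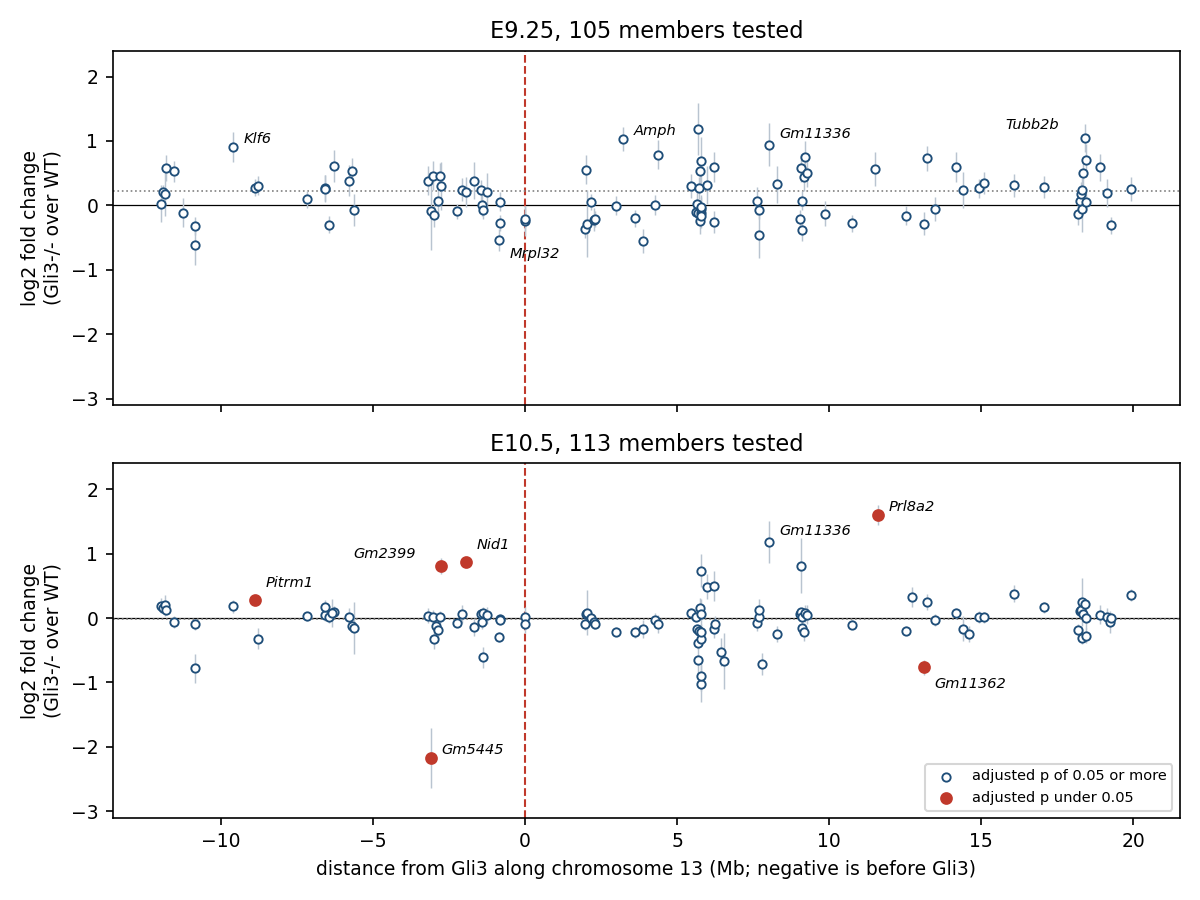
Log2 fold change of each tested member (Gli3-/- over WT, log2(TPM + 1) scale, y axis) against its distance from Gli3 in Mb (x axis, dashed red line at Gli3), at E9.25 (105 members) and E10.5 (113 members). Bars are standard errors, filled red points have a limma adjusted p under 0.05, and the dotted line is the median of all tested genes. The 6 red points at E10.5 lie on both sides of Gli3, and E9.25 has none.

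TPM is shared out of a fixed total. Over all tested genes, the median log2 difference (Gli3-/- over WT) was 0.23 at E9.25 and −0.022 at E10.5. Over members it was 0.18 and 0.0082. The 95% interval of the difference lay within 1 log2 unit on either side of 0 for 81 of 105 members at E9.25 and 95 of 113 at E10.5. The median width from the estimate to either end of that interval was 0.42 at E9.25 and 0.26 at E10.5, so that smaller differences were within the error of a typical member.

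Both genotypes can also be compared by asking whether their libraries overlap. At E9.25, all Gli3-/- libraries lay above all WT libraries for 19 members and below for 7, or 24.8% of members against 13.3% of all genes. Over all genes, 9.97% lay above and 3.36% below. Without WT replicate 2 these counts were 20 and 15, or 33.3% against 18.5%. At E10.5 the counts were 9 above and 18 below, or 23.9% against 19.3% of all genes, of which 7.87% lay above and 11.5% below. No test was run on these shares.

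**Figure D2:**
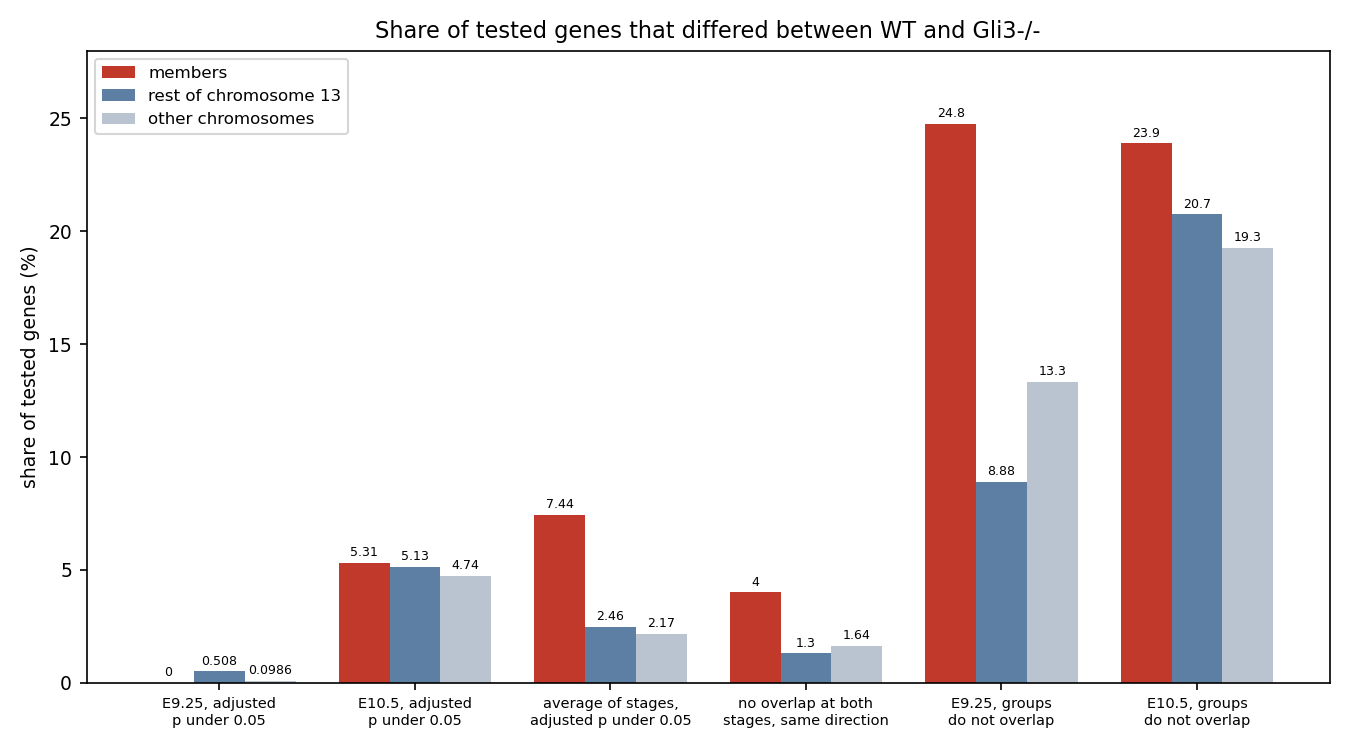
Share of tested genes (%, bars from 0) that passed a limma adjusted p of 0.05, or whose WT and Gli3-/- libraries did not overlap, for members, the rest of chromosome 13 and the other chromosomes. Members stand at 24.8% for E9.25 libraries without overlap and at 5.31% for called genes at E10.5.

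Because the stages share no library, each gene has independent values at E9.25 and E10.5. Among 100 members tested at both stages, 4 had genotypes that did not overlap at either stage and moved in the same direction, 3 higher and 1 lower. This is 4% of members against 1.7% of all genes (1.11% higher and 0.593% lower), 1.30% of the rest of chromosome 13 and 0.721% to 2.44% of other single chromosomes. The count was 7 without E9.25 WT replicate 1 (4.28% of all genes), E9.25 WT replicate 2 (2.54%) or E10.5 WT replicate 3 (2.12%), and 8 without E9.25 Gli3-/- replicate 1 (5.45%). Members that separated in opposite directions numbered 0 of 100, against 1.29% of all genes. Relative to the median gene, 62 of 100 members had the same sign at both stages, against 55.8% of all genes and 59.9% of the rest of chromosome 13. Across the 100 members, the effects at the stages correlated with Pearson's r of 0.27 and Spearman's rho of 0.36, and across all genes with 0.12 and 0.13. Genes are not independent replicates, and the estimates of a stage come from the same 7 libraries.

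**Figure D3:**
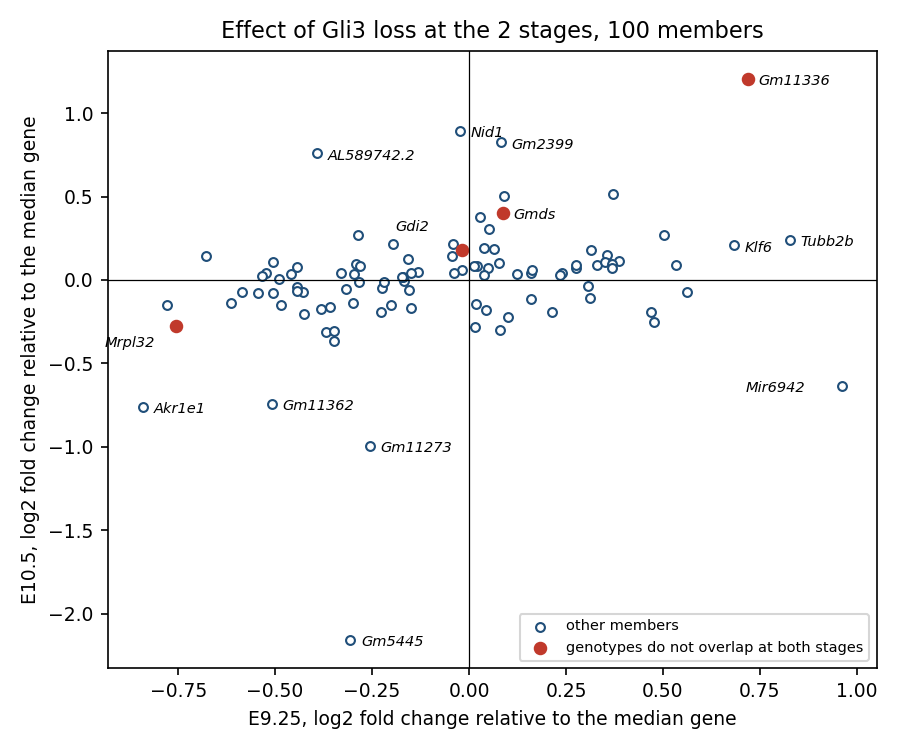
Log2 fold change relative to the median gene at E9.25 (x axis) and E10.5 (y axis) for the 100 members tested at both stages. Red points are Gm11336, Gmds, Gdi2 and Mrpl32, whose WT and Gli3-/- libraries did not overlap and lay in the same direction at both stages on the deposited scale. Relative to the median gene, Gdi2 stands at −0.019 on the x axis and 0.18 on the y axis. Gm5445 stands lowest on the y axis.

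With the genotype effect averaged over both stages in a model of all 14 libraries, 9 of 121 members passed, 6 higher and 3 lower, which is 7.44% against 2.27% of all 16368 tested genes (1.3% higher and 0.965% lower). On the rest of chromosome 13 the share was 2.46%, and on other single chromosomes it ran from 1.05% to 3.15%. This model gives both stages the same spread between replicates. Fitted by stage, the median half-width of the 95% interval over members was 0.42 at E9.25 and 0.26 at E10.5. Average and interaction p-values thus rest on a spread shared by both stages. The higher members were Klf6, Nid1, Amph, Gm11336, Prl8a2 and Tubb2b, and the lower ones Mrpl32, Zfp389 and Gm11362. Klf6, Amph and Tubb2b were named after their values were seen. Prl8a2 and Zfp389 entered through 1 group only, and without such genes 7 of 118 members passed, 5 higher and 2 lower, or 5.93% against 2.08% of all genes. This count moved strongly with single libraries. It was 26 without E9.25 Gli3-/- replicate 1, when 13.9% of all genes passed, and 24 without E9.25 WT replicate 1, when 12.2% passed. Without E9.25 WT replicate 2 it was 6 (2.19% of all genes). Leaving out any other library gave 2 to 7 members, with the lowest count without E10.5 Gli3-/- replicate 2, where Prl8a2 was not tested. The difference between the stages in the effect of genotype passed for 1 of 121 members, against 2.13% of all genes. That member was Prl8a2, and without genes that entered through 1 group the count was 0 of 118, against 1.95% of all genes.

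Calls were found near to Gli3 and far from it. Within 5 Mb of Gli3, 3 of 33 tested members were called at E10.5, against 1 of 45 from 5 to 10 Mb and 2 of 35 from 10 to 20 Mb, where 4.77% of all genes passed. The average effect was called for 3 of 35, 3 of 49 and 3 of 37 members in these bins, against 2.27% of all genes. The counts from 10 to 20 Mb include Prl8a2, and the average count from 5 to 10 Mb includes Zfp389. These genes entered through 1 group only and had to differ, so the bins are a description. Of the genes of the stretch left out by name, without Gli3, 4 of 55 were called at E9.25 (7.27% against 0.136% of all genes), 5 of 57 at E10.5 (8.77% against 4.77%) and 9 of 57 in the average (15.8% against 2.27%).

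The 3 nearest members on each side of Gli3 were measured whatever their values. Gm6556 and Gm26645 lie at the Gli3 start on the other strand. Their levels were within 0.58 to 1.89 in all 14 libraries, and their E10.5 differences were 0.014 and −0.095 (limma adjusted p = 0.972 and 0.752). AW209491, 0.83 Mb before Gli3, differed by 0.057 at E9.25 and −0.027 at E10.5, with libraries that overlapped at both stages. After Gli3 come Mplkip, which codes for a protein linked to trichothiodystrophy, and Cdk13, a kinase that phosphorylates RNA polymerase II. Mplkip levels at E9.25 were 4.62, 4.52 and 4.56 in WT and 4.34, 4.04, 4.20 and 4.24 in Gli3-/- libraries, which do not overlap, but the difference of −0.36 did not pass (limma adjusted p = 0.219). Cdk13 differed by 0.56 at E9.25 and 0.069 at E10.5 (limma adjusted p = 0.217 and 0.725). Mir466i, which lies inside Cdk13 and spans under 200 bases, ranged from 0.00 to 2.05 across the libraries. None of these 6 neighbours was called at either stage or in the average.

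Nid1, about 1.95 Mb before Gli3, encodes nidogen-1, a basement membrane protein that links laminin to type IV collagen. At E10.5 its levels were 5.09, 5.11, 5.26 and 5.08 in WT and 5.94, 6.07 and 6.01 in Gli3-/- libraries. Every mutant library lay above every WT library, and the replicates of each genotype were close together. The E10.5 difference was 0.87 (standard error 0.073, limma adjusted p = 0.000424), and it passed under all 11 alternative settings and after leaving out each of the 7 libraries. At E9.25 the levels were 5.00, 4.15 and 4.91 in WT and 4.57, 5.23, 4.89 and 4.87 in Gli3-/- libraries, and the genotypes overlapped. The E9.25 difference was 0.20 with a 95% interval of −0.31 to 0.72 (limma adjusted p = 0.573), and the difference between stages was 0.67 (limma adjusted p = 0.18). Nid1 is made by several cell types, and at E10.5 the summed endothelial markers were 5.88 to 6.27 in WT and 6.06 to 6.33 in Gli3-/- libraries, with 0 of 4 called. The summed ectoderm and ridge markers were also higher in E10.5 mutants, but of these genes Fgf8 alone separated the genotypes, and Epcam, Krt8, Krt18 and Cdh1 overlapped. The part of these markers in the Nid1 difference was not tested. Among them Fgf8, a ridge ligand, stood at 5.68 to 6.13 in E10.5 WT and 7.05 to 7.43 in E10.5 Gli3-/- libraries, whereas Krt8, an epithelial keratin, stood at 4.34 to 4.97 and 4.38 to 4.87. At E9.25 Fgf8 was lower in mutants, at 5.37 to 6.17 in WT and 4.22 to 5.23 in Gli3-/- libraries.

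Prl8a2, 11.6 Mb after Gli3, is a member of the prolactin family known from the decidua of pregnancy. It was listed at 0 in all 4 E10.5 WT and all 4 E9.25 Gli3-/- libraries. The E9.25 WT libraries had 0.20, 0.12 and 0.00, and the E10.5 Gli3-/- libraries had 1.68, 1.33 and 1.79. Prl8a2 was thus measured above the TPM limit in E10.5 mutant buds alone, and it could enter the set only through that group. It therefore had to differ, and its E10.5 difference of 1.60 and its difference between stages of 1.71 are descriptions with no test. Another prolactin family gene, Prl3b1, stood at 0.00 to 0.64 in E10.5 WT and 0.00 to 0.36 in E10.5 Gli3-/- libraries.

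Pitrm1 encodes a protease that degrades peptides in the mitochondrial matrix. Its E10.5 levels were 6.37, 6.41, 6.33 and 6.54 in WT and 6.73, 6.65 and 6.72 in Gli3-/- libraries. The genotypes did not overlap, and the difference was small, at 0.29 (standard error 0.069, limma adjusted p = 0.0491). The call held under 4 of 11 alternative settings and after leaving out 1 of 7 libraries. At E9.25 the difference was 0.28 (limma adjusted p = 0.245). Pitrm1 overlaps Pfkp on the other strand.

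The other genes called at E10.5 were transcripts without an assigned function. Gm2399, a pseudogene, stood at 2.38, 2.53, 2.38 and 2.36 in WT and 3.20, 3.43 and 3.02 in Gli3-/- libraries (difference 0.80, standard error 0.13, limma adjusted p = 0.00781). Gm11362 was lower in mutants, with 4.13, 4.53, 4.47 and 4.31 in WT and 3.52, 3.70 and 3.56 in Gli3-/- libraries, and it lies within 2610307P16Rik on the other strand. Its E10.5 difference was −0.76 (standard error 0.11, limma adjusted p = 0.00573) and its E9.25 difference −0.28 (limma adjusted p = 0.325). Gm5445, a pseudogene, stood at 3.23, 3.06, 4.19 and 3.84 in WT and 2.70, 0.72 and 0.80 in Gli3-/- libraries. Its difference of −2.18 was the largest of all members, but the mutant libraries were far apart (standard error 0.47, limma adjusted p = 0.0315). It passed under 5 of 11 alternative settings and after leaving out 2 of 7 libraries.

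**Figure D4:**
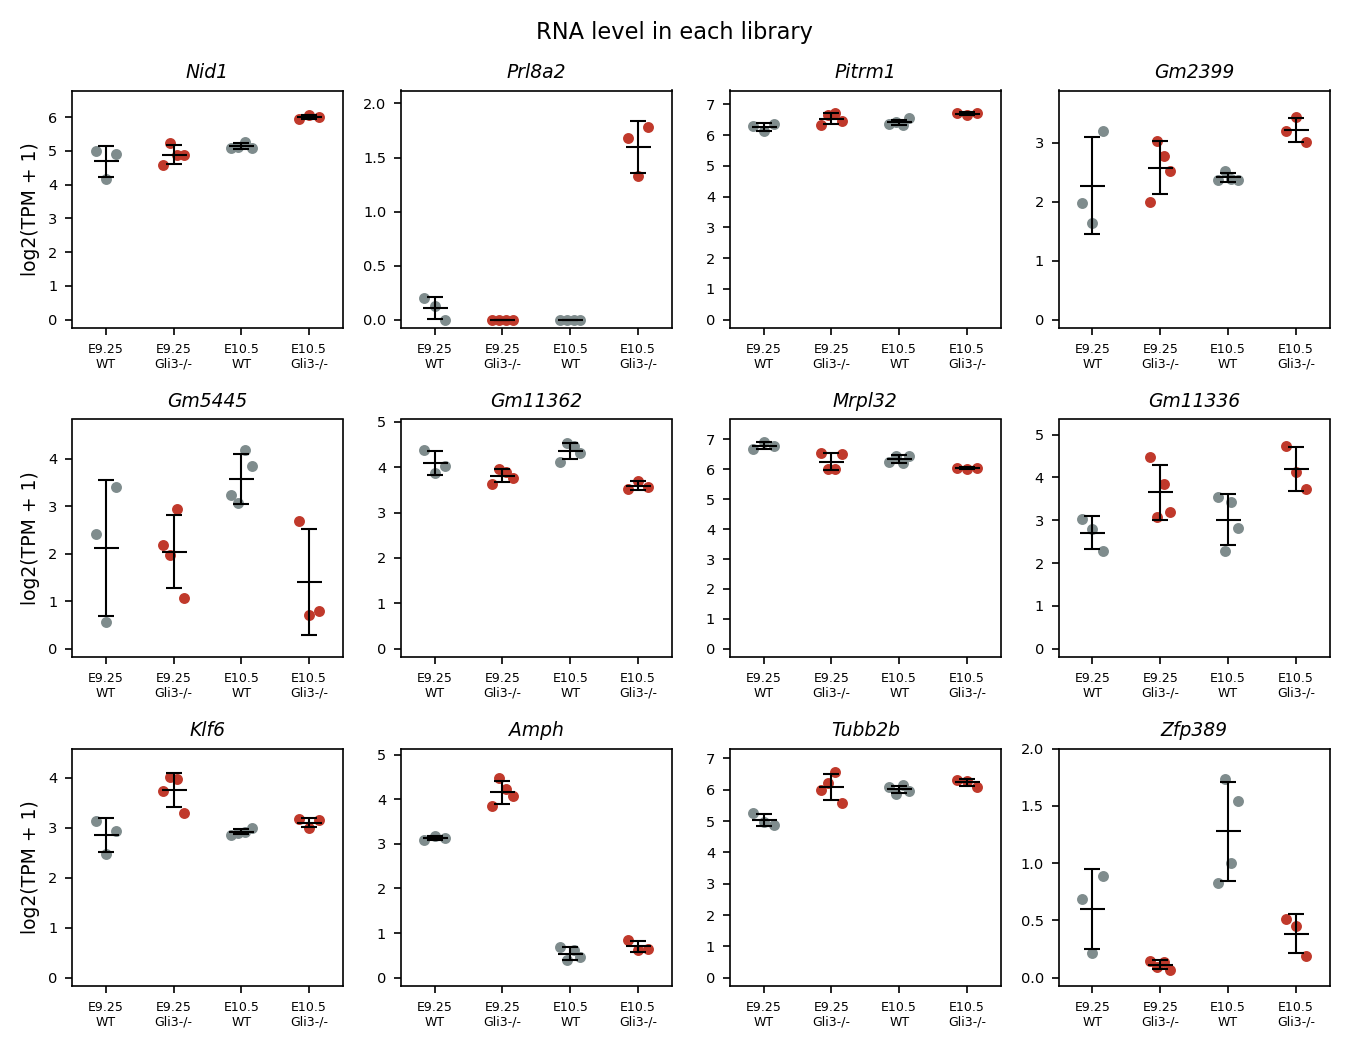
RNA level (log2(TPM + 1), y axis) of 12 members in each of the 14 libraries, with WT in grey and Gli3-/- in red at E9.25 and E10.5, and bars for the mean and SD of each group. Nid1, Pitrm1, Gm2399, Gm5445, Gm11362 and Prl8a2 separate the genotypes at E10.5, Amph, Tubb2b and Klf6 at E9.25, and Mrpl32, Gm11336 and Zfp389 at both stages. Prl8a2 and Zfp389 reached the TPM limit in libraries of 1 group only and had to differ at E10.5, and Zfp389 was under the TPM filter at E9.25.

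The members that separated at both stages included Mrpl32, which encodes a protein of the large mitochondrial ribosomal subunit and lies 0.85 Mb before Gli3. Its E9.25 levels were 6.69, 6.92 and 6.77 in WT and 6.53, 6.00, 6.01 and 6.50 in Gli3-/- libraries. At E10.5 they were 6.23, 6.46, 6.22 and 6.43 in WT and 6.06, 6.00 and 6.06 in Gli3-/- libraries. Every mutant library lay below every WT library of its stage. The differences were −0.53 and −0.30, neither of which passed alone (limma adjusted p = 0.217 and 0.0653), and the average of −0.42 did (limma adjusted p = 0.0358). Gm11336, which has no RefSeq entry and spans 334 bases, differed by 0.94 at E9.25 and 1.18 at E10.5, with an average of 1.06 (limma adjusted p = 0.0476). It ranged from 2.27 to 3.55 over WT libraries and from 3.08 to 4.74 over Gli3-/- libraries. The average passed under 2 of 7 alternative settings for Gm11336 and 5 of 7 for Mrpl32, and after leaving out 1 library in 5 and 4 of 14 cases. That of Nid1 passed in 4 of 7 settings and 3 of 14 cases. Gdi2, a regulator of Rab GTPases that overlaps Fam208b on the other strand, differed by 0.21 and 0.16. Gmds, an enzyme of GDP-fucose synthesis, differed by 0.31 and 0.38. The median gene stood at 0.23 at the earlier stage, and there Gdi2 turned to −0.043 with size factors and −0.024 with the gene span trend removed, and Gmds to −0.11 with the latter. Their averages did not pass (limma adjusted p = 0.0895 and 0.0898). Zfp389, a pseudogene, was under the TPM filter at E9.25 and entered through E10.5 WT libraries alone, so its values are a description. It stood at 0.83, 1.74, 1.00 and 1.55 in E10.5 WT and 0.51, 0.45 and 0.19 in E10.5 Gli3-/- libraries.

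Klf6, Amph and Tubb2b had their larger differences at E9.25. Amph encodes amphiphysin, a membrane-bending protein of endocytosis, and it stood at 3.09, 3.17 and 3.13 in E9.25 WT and 3.86, 4.46, 4.23 and 4.08 in E9.25 Gli3-/- libraries. The groups did not overlap, and the difference was 1.03 (standard error 0.18, limma adjusted p = 0.0783). Amph was at 0.39 to 0.84 in both genotypes of the later stage, under the filter, and its average effect of 0.59 passed under all 7 alternative settings and without each of the 14 libraries. Tubb2b, a beta-tubulin of developing neurons, was at 5.26, 4.99 and 4.87 in E9.25 WT and 5.99, 6.23, 6.57 and 5.58 in E9.25 Gli3-/- libraries. Its difference was 1.05 at E9.25 (limma adjusted p = 0.129) and 0.22 at E10.5 (limma adjusted p = 0.208), and its average passed without 12 of 14 libraries in turn. Tubb2a, a close paralog nearby that may share reads with it, differed by 0.50 and 0.067. Klf6, a zinc finger transcription factor, was at 3.13, 2.47 and 2.94 in E9.25 WT and 3.74, 4.01, 3.99 and 3.29 in E9.25 Gli3-/- libraries. Its difference was 0.91 at E9.25 (limma adjusted p = 0.189) and 0.19 at E10.5 (limma adjusted p = 0.35), and its average passed without 3 of 14. The interaction passed for none of these genes (limma adjusted p = 0.0547 for Amph, 0.103 for Tubb2b and 0.158 for Klf6). At E9.25 the summed flank and endothelial markers also separated the genotypes. Singly, Foxf1, Gata4, Cdh5 and Kdr separated them, whereas Gata6, Hand1, Pecam1 and Tek overlapped. The part of these markers in the differences of Klf6, Amph and Tubb2b was not tested.

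The members were also read by role, from lists of genes in the stretch. Over all tested genes, 0.136% passed at E9.25, 4.77% at E10.5 and 2.27% in the average. The lists are short, and the counts of calls below do not set 1 list apart from another. Transcription and chromatin genes (17 members of 23 listed) had no call at either stage. Their median difference was 0.27 at E9.25 and 0.057 at E10.5, where the values ran from −0.21 to 0.36 (Cdyl, a chromodomain protein, limma adjusted p = 0.0528). Sox4, an HMG-box factor, differed by 0.73 at E9.25 and 0.25 at E10.5 (limma adjusted p = 0.206 and 0.32). Klf6 was the 1 member of this list with a called average. Genes of RNA handling, ribosomes and protein turnover (13 of 18) had 1 call at E10.5, Pitrm1, and 1 called average, Mrpl32, with medians of 0.052 and 0.014 at the stages. Metabolic genes (15 of 18) had 0 calls of 15 at E9.25 and 0 of 14 at E10.5, with medians of 0.24 and 0.028. Akr1e1, an aldo-keto reductase, had the lowest values of that list, at −0.61 and −0.78 (limma adjusted p = 0.246 and 0.0932). Trafficking and cytoskeleton genes (14 of 19) had no call at a single stage and medians of 0.34 and −0.067, with Amph and Tubb2b called in the average. Signalling and matrix genes (7 of 11) had Nid1 called at E10.5 and in the average, and medians of 0.25 and 0.063. The 55 members on none of these lists, most of them pseudogenes, small RNAs and unnamed transcripts, had medians of −0.063 and −0.035, with 2 higher (Gm2399 and Prl8a2) and 2 lower at E10.5. Of these, Prl8a2 reached the TPM limit in E10.5 Gli3-/- libraries only and had to differ, so its call is a description. At E9.25, 11 of 40 tested members on none of the lists lay above the median gene.

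**Figure D5:**
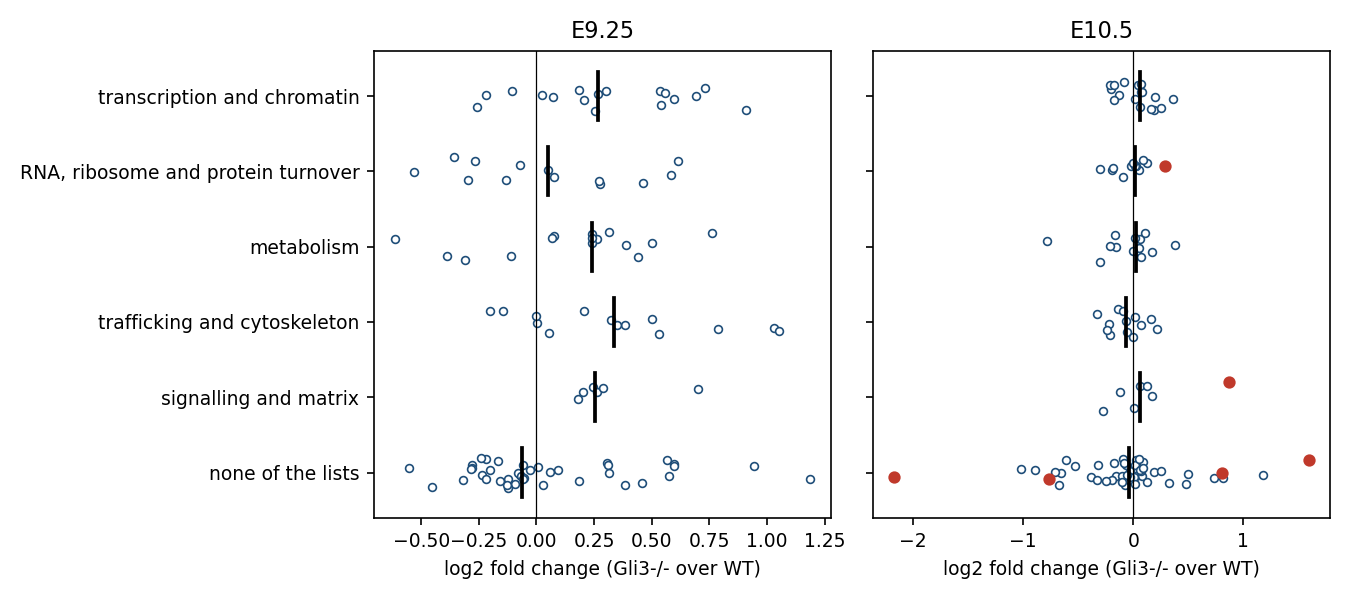
Log2 fold change (Gli3-/- over WT, x axis) of tested members by gene list at E9.25 and E10.5, with a black line at each median and red points for a limma adjusted p under 0.05. At E9.25 the medians run from −0.063 to 0.34, and at E10.5 from −0.067 to 0.063.

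The stage difference in WT was wider than the effect of genotype. Between E9.25 whole buds and E10.5 anterior buds, 53 of 114 tested members passed, 41 higher and 12 lower at E10.5, which is 46.5% against 48.7% of all genes (38.1% higher and 10.6% lower). These counts include genes that reached the TPM limit in only 1 of the WT groups and so had to differ. Among members these include Amph, Akr1c13, Gm11335, Gm26129 and Gm11284, and no count was made without such genes. Stage and region of the bud cannot be told apart here. The median gene was 0.34 higher at E10.5. Amph was 2.59 lower, the largest drop among members, and Gm11335 was 1.92 higher. Here Amph reached the TPM limit in E9.25 WT libraries only, and Gm11335 in E10.5 WT libraries only. Both therefore had to differ, and their values are a description with no test. Arid4b, a chromatin protein, was 1.37 higher, and Aldh5a1, which oxidizes succinic semialdehyde, was 1.30 higher. Of transcription and chromatin members 10 of 17 were higher and 1 was lower, whereas of RNA and protein turnover members 2 of 13 were higher and 4 were lower.

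Promoters were examined because GLI proteins bind a known motif, GACCACCCA. RefSeq promoters (GRCm38.p6, 250 bases before to 50 after a gene start) matched 71 members with 87 windows. The 9-base motif or its reverse complement TGGGTGGTC was found in 1 of these windows, or 1.15%, against 0.253% of all 32851 promoters. That window belongs to Zmynd11, which encodes a reader of methylated histone H3 and was not called (0.54 at E9.25, limma adjusted p = 0.217, and −0.13 at E10.5, limma adjusted p = 0.396). The match is a description of letters and not of binding. Prl8a2 and Tubb2b have no promoter entry. The promoters printed here are those of Nid1 and Pitrm1, the protein-coding members called at E10.5 that have an entry, and of Zmynd11. They are read from 5′ to 3′ on the gene's strand, with capitals for the motif in its reverse-complement form from base 118 of the window. Nid1 is at chr13:13437352-13437651 (plus), Pitrm1 at chr13:6547907-6548206 (plus) and Zmynd11 at chr13:9765272-9765571 (minus).
Nid1: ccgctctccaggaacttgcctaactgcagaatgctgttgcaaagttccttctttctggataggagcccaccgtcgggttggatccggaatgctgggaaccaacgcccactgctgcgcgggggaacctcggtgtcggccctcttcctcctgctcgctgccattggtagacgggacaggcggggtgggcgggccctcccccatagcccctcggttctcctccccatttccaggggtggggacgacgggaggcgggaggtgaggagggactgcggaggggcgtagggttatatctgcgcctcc
Pitrm1: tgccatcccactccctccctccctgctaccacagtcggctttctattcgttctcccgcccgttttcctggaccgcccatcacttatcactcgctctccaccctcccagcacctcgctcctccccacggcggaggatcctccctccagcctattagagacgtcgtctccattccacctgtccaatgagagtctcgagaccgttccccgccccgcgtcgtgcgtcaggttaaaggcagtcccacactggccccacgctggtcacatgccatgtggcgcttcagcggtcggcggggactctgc
Zmynd11: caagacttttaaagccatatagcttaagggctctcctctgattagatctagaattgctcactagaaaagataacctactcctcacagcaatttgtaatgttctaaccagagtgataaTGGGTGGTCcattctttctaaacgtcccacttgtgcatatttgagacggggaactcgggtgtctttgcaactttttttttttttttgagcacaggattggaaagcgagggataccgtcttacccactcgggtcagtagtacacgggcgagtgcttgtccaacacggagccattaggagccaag
The GC content of these windows was 64.7% for Nid1, 63.0% for Pitrm1 and 44.3% for Zmynd11, against a median of 56.3% over member promoters and 52.7% over all promoters.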

How the data were processed

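RNA was sequenced from 14 libraries of mouse forelimb buds (TRIzol extraction, NEBNext Ultra II, single reads of 100 bases, HISAT2 alignment). The deposited tables list, for each gene ID, the coverage (a signal of mean read depth per base) that the authors computed. The authors also deposited FPKM, which scales coverage by library size. TPM as deposited by the authors was used for all tests. The submitters' processing notes name mm10, and the program that made the values is not given in the sources used here. No counts were held, so the study's DESeq2 test was not run. TPM was summed over lines of 1 gene ID, and log2(TPM + 1) was tested with limma 3.58.1 in R 4.3.3 (eBayes with a trend, two-sided, Benjamini-Hochberg over all genes, threshold 0.05) on genes that reached a TPM of 1 in 3 or more of the libraries compared. This scale understates changes of low genes. Depth came from the ratio of coverage to FPKM. The procedure was tested on simulated data. Other steps used Python 3.11.15, pandas 2.3.3, NumPy 2.4.6 and matplotlib 3.10.9. RefSeq tables (GRCm38.p6) gave gene classes and promoters.

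Members, gene lists and comparisons were chosen with earlier results of these data known. Genes named were those called at E10.5, those separated at both stages, those with an interaction, the 3 nearest on each side of Gli3 and those at the limits of the rule. All others were named after their values were seen. The titles number E10.5 Gli3-/- libraries 1 to 3, and the names of the deposited files run from 2 to 4. Same-numbered libraries deviated with a mean correlation of −0.18 at E9.25 (other pairs 0.060) and −0.05 at E10.5 (other pairs 0.018). By table numbers the E10.5 mean was 0.19, with 0.052 to 0.32 over 3 pairs, against −0.063 for other pairs. Numbers were not taken to pair libraries, and counts with replicate blocks are given below. Alternatives were another pseudocount, other filters, no trend, quantile normalization, size factors, a gene span correction, quality weights, replicate blocks, a shared spread, a 10 Mb limit and each library left out. Other data types of the series were not used here.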

Additional observations from a re-analysis of the deposited data

Results flagged for a closer look

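Each group of 4 libraries was examined for a library far from its others, over 21 named genes and 42 groups, and chance gives about 5% of groups such a library. Gm2399 in E10.5 WT replicate 2 was the 1 case, at 2.53 against 2.36 to 2.38 in the other E10.5 WT libraries. The effect of loss of Gli3 differed between stages for Prl8a2, by 1.71 (log2). The gene reached the TPM limit in E10.5 Gli3-/- libraries alone and so had to differ, and the value is a description, with the value higher in 3 of 3 E10.5 Gli3-/- libraries than in the WT libraries of that stage. At E9.25 the gene was at 0 in 4 of 4 Gli3-/- libraries.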

How the results depend on the processing

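For the named genes, 1025 values kept direction and side of the threshold under an alternative, 38 passed where the reported value had not, 89 no longer passed and 41 changed sign, and causes were not tested except where stated. At E9.25 the reported 0 members became 9 of 121 when all 14 libraries shared the spread (4.86% of all genes passed), 1 with quality weights (0.359%) and 28 at an unadjusted p under 0.05 (22.0%). At E10.5 the reported 6 became 10 with quality weights (8.66%). The replicate numbers were not taken as pairs. A replicate block by title gave 0 members at the earlier stage (0.447%) and 3 at the later one (1.05%), where a block by table number gave 5 (3.18%). The average effect, 9 members, gave 4 with no filter (0.918%) and 20 with quality weights (7.91%). Without pseudogenes and genes under 200 bases, an alternative added after seeing the data, 8 of the 96 members left had a called average, against 2.27% of all genes. The interaction, 1 member, gave 0 with a TPM filter of 5 (2.00%), under which Prl8a2 is not tested, and 4 with quality weights (5.07%). The interaction gave 2 without a trend (2.65%), with quantile normalization (2.11%) or with size factors (2.20%). Without genes at the TPM limit in 1 group only, also added after seeing the data, it gave 0, E10.5 gave 5 and the average 7. Members separated at both stages, 4 as reported, numbered 6 with size factors (1.91% of all genes) and 6 with quantile normalization (2.14%). Within 10 Mb they numbered 2, where fewer members are counted. Leaving out 1 library gave 0 to 1 members at E9.25, 3 to 7 at E10.5 and 2 to 26 for the average. The E10.5 count was 3 without Gli3-/- replicate 3, when 1.94% of all genes passed. For the interaction it gave 0 to 7. The count was 7 without E9.25 WT replicate 1 (8.79% of all genes) and 0 without E10.5 Gli3-/- replicate 2 (1.26%) or 3 (0.923%). Without any 1 of the E10.5 Gli3-/- libraries, Prl8a2 falls under the TPM filter. It is then not tested at E10.5, in the average or for the interaction. Separation at both stages held for 4 to 8 members, with 8 without E9.25 Gli3-/- replicate 1 (5.45%). It held for 7 without E9.25 WT replicate 1 (4.28%) or 2 (2.54%) or E10.5 WT replicate 3 (2.12%).

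Some values changed sign, among them E9.25 values reported as 0.31 for Gmds and Gm2399, 0.25 for Cdyl, 0.21 for Gdi2 and 0.20 for Nid1. At that stage, Gm5445 gave 0.25 with the block and 0.085 with a pseudocount of 0.1, and Gm2399 gave −0.085 with quality weights. Nid1 gave −0.052 with quantile normalization, −0.038 with size factors and −0.14 with the span trend removed. Gdi2 gave −0.043 with size factors and −0.024 with the span trend removed, and Gmds gave −0.11 with the latter. Cdyl gave −0.019 with quantile normalization and −0.14 with the span trend removed. AW209491 gave −0.20 with quantile normalization, −0.18 with size factors and −0.11 with the span trend removed. At E10.5, Gm6556 gave −0.0059 with quality weights, and AW209491 gave 0.0069 with the block, 0.00045 with quantile normalization, 0.0097 with size factors, 0.0015 with the span trend removed and 0.036 with quality weights. In the average, AW209491 gave −0.097 with quantile normalization and −0.086 with size factors, and Mir466i gave 0.0083 with a pseudocount of 0.1. Leaving out 1 library gave −0.064 to 0.36 for Nid1, −0.0069 to 0.77 for Gm2399 and −0.86 to 0.56 for Gm5445 at E9.25. At E10.5 it gave −0.068 to 0.0069 for AW209491, −0.071 to 0.091 for Gm6556 and −0.15 to 0.20 for Mir466i. For the average it gave −0.0097 to 0.036 for AW209491 and −0.36 to 0.16 for Mir466i.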

Other observations

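A stretch with zinc finger genes and pseudogenes lies about 5.6 to 5.8 Mb after Gli3, between the end of Gpx6 and the start of Zkscan8 (chromosome 13, 21319624 to 21513222), and was chosen after its values were seen. It holds 13 members, many of which encode zinc finger proteins of the Zscan and Zkscan families or are pseudogenes. Of 12 tested at E10.5, 4 had Gli3-/- libraries that all lay below the WT libraries, 0 had them all above, and 0 passed the adjusted threshold in limma (11.5% of all genes separated downward at E10.5). None of the 4 is a Zscan or Zkscan gene, and for all genes of those families here the genotypes overlapped at E10.5. Pgbd1 stood at 3.25, 3.23, 3.22 and 3.17 in WT and 2.90, 2.69 and 2.89 in Gli3-/- libraries (difference −0.39, limma adjusted p = 0.0638). AK157302 stood at 4.00, 4.06, 4.08 and 4.01 in WT and 3.79, 3.62 and 3.73 in Gli3-/- libraries (difference −0.33, limma adjusted p = 0.0627). Gm11273 stood at 4.36, 4.57, 4.43 and 4.45 in WT and 4.32, 2.90 and 3.09 in Gli3-/- libraries (difference −1.02, limma adjusted p = 0.084). The fourth was Zfp389, which reached the TPM limit in E10.5 WT libraries alone and so had to differ. At E9.25 the differences of Pgbd1, AK157302 and Gm11273 were −0.12, −0.12 and −0.030, with libraries that overlapped. AL589742.2 overlaps Gm11273 on the same strand. At E10.5 it stood at 4.65, 4.84, 4.58 and 4.59 in WT and 4.60, 5.88 and 5.72 in Gli3-/- libraries. AL589742.2 was thus higher in the same Gli3-/- libraries in which Gm11273 was low, and a split of reads between these genes was not tested.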
